A study of Homo sapiens with 14 samples.

Results

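The genes described here encode the enzymes of middle and lower glycolysis, from phosphofructokinase to pyruvate kinase. The 10 members were taken by gene name (PFKL, PFKM, PFKP, ALDOA, TPI1, GAPDH, PGK1, PGAM1, ENO1 and PKM), of 59471 gene names in the count files and 39032 with a count in at least 1 library. Each member had reads in every library, with 597 counts for ALDOA in its lowest library as the smallest value. No filter on measured values was used to choose them, but earlier results of these data were known. PGK1 and ENO1 are among the genes that the study picked from these libraries, so their direction here is not independent evidence. The paper also reports a glycolysis gene set as enriched in KMT2D-KO cells from its RNA-seq, so the direction of the other members is not independent of it either.

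All libraries came from SCC23, an established line of head and neck squamous cell carcinoma (HNSCC) grown in high-glucose DMEM with serum. KMT2D is a histone methyltransferase that marks enhancers and promoters. The cells called KMT2D-WT had received a Cas9-GFP plasmid with a guide against LacZ, whereas KO1 and KO2, the KMT2D-KO lines, had received the same plasmid with 1 of 2 different guides against KMT2D. Cells positive for GFP were sorted, and no cloning from single cells is described. PolyA RNA was sequenced from cells kept in glucose and from cells deprived of glucose for 6 h, in 2 experiments. Each glucose condition holds 3 libraries of KMT2D-WT and 4 of KMT2D-KO cells. The labels do not say that libraries of a group came from separate cultures, so p-values measure the spread between these libraries, which may be technical in part.

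Phosphofructokinase commits sugar to glycolysis and is its main point of control. Aldolase then splits the sugar, triose phosphate isomerase interconverts the resulting triose phosphates, and the enzymes below them yield ATP, NADH and finally pyruvate, which is passed to lactate or to the mitochondria. Squamous carcinoma cells, like many tumour cells, are known for turning much of their glucose into lactate with oxygen present.

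Total counts lay between 15669154 and 62968057 per library, and the 10 members took 0.702% to 1.28% of them. The target itself was checked first. KMT2D stood at 279, 266 and 271 CPM (counts scaled to library size with TMM factors over all 14 libraries) in KMT2D-WT with glucose, at 182 and 184 in KO1 and at 323 and 373 in KO2. Without glucose it stood at 239, 233 and 231 in KMT2D-WT, and at 19.9 and 190.2 in the KO1 and KO2 libraries of experiment 1 and at 152 and 145 in those of experiment 2. Its mRNA was therefore not lower in every library labelled KO, and since a guide can end the protein and leave the mRNA, it checks the labels only in part. For its KMT2D-KO SCC23 cells the paper reports mutations of the gene by sequencing, and loss of the protein with less H3K4me1 by western blot. KMT2D-KO, KO1 and KO2 stand here for the libraries so labelled. Of 7 squamous epithelium markers, EPCAM, TP63, CDH1, KRT14, KRT17 and KRT5 were above 1 CPM in every library and KRT6A was at most 1.13 CPM, while 4 leukocyte markers summed to at most 0.29 CPM. The squamous markers moved with the groups: they summed to 751 to 789 CPM in KMT2D-WT and 500.3 to 979 CPM in KMT2D-KO with glucose, and to 855 to 860.5 and 946 to 2441 CPM without. The 4 fibroblast markers summed to 5.57 to 7.0 CPM in KMT2D-WT and 12.5 to 21.4 CPM in KMT2D-KO with glucose, and to 3.14 to 5.58 and 7.37 to 13.9 CPM without, with PDGFRA and PDGFRB near 0. The 3 endothelial markers summed to 0.422 to 1.18 CPM in KMT2D-WT and 0.304 to 4.11 CPM in KMT2D-KO with glucose, and to 0.388 to 0.80 and 2.19 to 3.31 CPM without, where CDH5 was called higher in KMT2D-KO (log2 fold change 2.24, edgeR adjusted p = 0.00143) and PECAM1 and VWF were at most 0.307 CPM in every library. Mitochondrial genes took 2.69% to 5.80% of counts in KMT2D-WT and 3.77% to 6.17% in KMT2D-KO with glucose, and 2.64% to 2.77% and 3.82% to 4.83% without. The part of these in the results below was not tested, and in bulk RNA fewer cells of a type and less RNA per cell cannot be told apart.

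Some libraries stood apart. The 4 libraries that experiment 2 has from cells with glucose were counted with both mates of each pair and the other 10 from single reads, so the glucose contrast within experiment 2 and the read layout cannot be told apart. The libraries of experiment 2 without glucose were nearly alike in pairs. Between both KMT2D-WT libraries the chi-square of the counts was 1.71 per gene, and between the libraries labelled KO1 and KO2 it was 1.78, against 25.9 to 83.0 in the other 4 pairs of like libraries. Both exceed the sampling noise of 1 count table drawn again, and each was kept as a library. This does not show that the libraries of a pair came from separate cultures. If they did not, adjusted p values that use them as separate libraries may be too low. For the genotype comparison without glucose, the calls of the members are also given with each pair summed to 1 library. All other values without glucose, by gene and for the difference of both effects, keep the pairs as separate libraries. The line labels of that KMT2D-KO pair are in doubt, so KO1 and KO2 are compared with each other by a test only with glucose, and by line without glucose only in experiment 1.

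The promoter of PGK1 is shown because this member had the largest fold change between genotypes. The RefSeq window holds the 250 bases before the start at chrX:78103998-78104247 (GRCh38.p14, plus strand), inside the span that the count files give the gene, and no exon of GENCODE v44 overlaps it. Capitals mark the cores ACGTG and GCGTG on either strand (read as CACGT or CACGC on the other), in which hypoxia-inducible factors are known to bind.
PGK1: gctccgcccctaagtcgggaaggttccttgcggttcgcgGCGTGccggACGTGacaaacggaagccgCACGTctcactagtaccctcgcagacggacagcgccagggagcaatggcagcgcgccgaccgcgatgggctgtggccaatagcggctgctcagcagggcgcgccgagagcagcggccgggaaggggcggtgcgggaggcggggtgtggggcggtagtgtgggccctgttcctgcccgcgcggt
The window holds ACGTG 2 times and GCGTG 1 time. Over windows of the same length before 27305 genes, 18.7% hold ACGTG and 31.9% hold GCGTG, and of the 10 members 3 hold ACGTG (ALDOA, GAPDH, PGK1) and 3 hold GCGTG (PFKL, PGK1, ENO1). The longer E-box CACGTG, which contains ACGTG, is in 6.49% of windows and in 1 member, GAPDH. GGGCGG, the core of the GC box, is in 42.3% of windows and in 8 members. A match is a run of letters and no evidence that a factor binds there. For 5 members, among them ENO1 and TPI1, exons of GENCODE v44 cover the whole window.

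Per length of transcript the members spanned a wide range. GAPDH was the highest, with a mean of 4052 TPM (counts divided by exonic length and scaled to the whole library, averaged over the 4 groups), followed by ENO1 at 1436, TPI1 at 893, PKM at 874 and PGK1 at 293 TPM. PFKP stood at 127, PFKL at 52.3, PFKM at 48.8 and ALDOA at 43.6 TPM. PGAM1 has no fixed place in this order: it was at 429 to 506 TPM in the 4 libraries counted with both mates, above PGK1 in each, and at 73.7 to 126 TPM in the other 10, below PFKP in each. TPI1 and PKM, whose ranges over the 14 libraries were 630.1 to 1191 and 710.4 to 1004 TPM, cannot be ranked against each other, and neither can PFKL (41.2 to 65.4 TPM), PFKM (36.0 to 62.8 TPM) and ALDOA (18.5 to 91.4 TPM). GAPDH, ENO1 and PKM together made up 73.8% to 81.8% of the summed level. ALDOA, PGAM1, GAPDH and TPI1 carry limits of counting that are given with each.

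**Figure D1:**
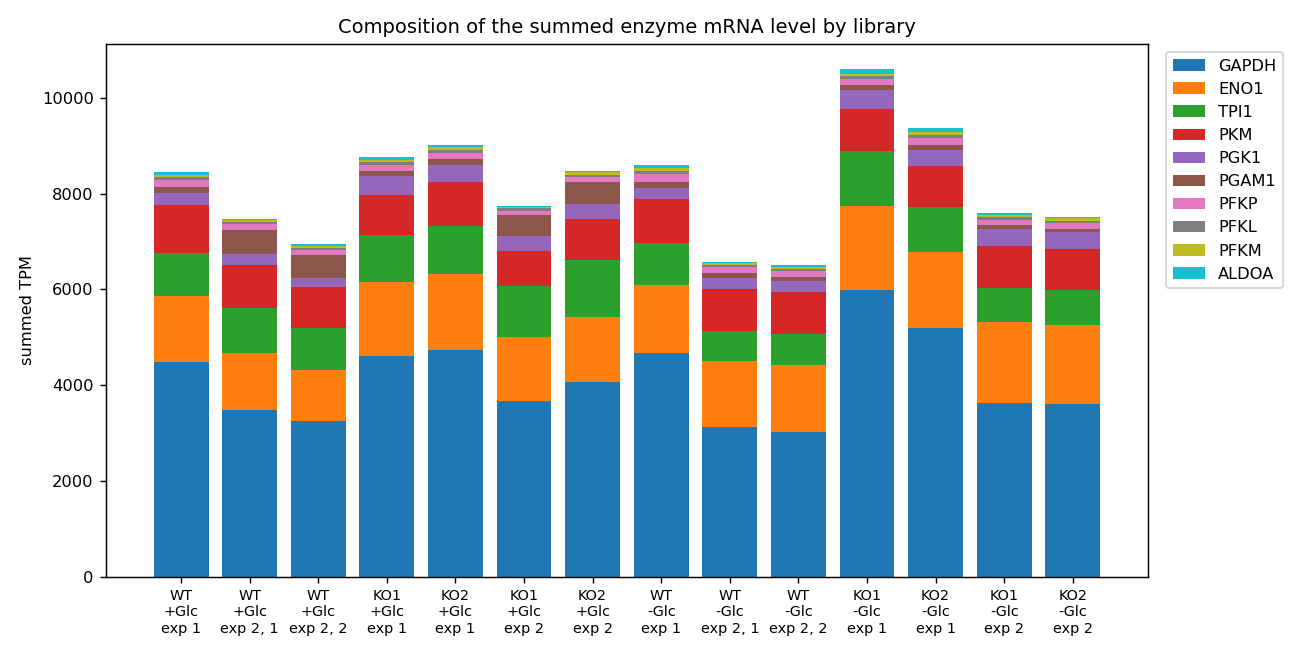
Bars show the summed TPM of the 10 members in each library, from 0, split by gene and ordered by group. Every KMT2D-KO bar is higher than the mean of the KMT2D-WT bars of its experiment and glucose condition, and GAPDH is the largest part of each bar.

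The summed level was 7624 ± 771 TPM (SD, n = 3) in KMT2D-WT and 8500.2 ± 551 TPM (SD, n = 4) in KMT2D-KO cells with glucose. Without glucose it was 7226 ± 1189 TPM (SD, n = 3) and 8763 ± 1491 TPM (SD, n = 4). Against the mean of KMT2D-WT in the same experiment, single KMT2D-KO libraries were 1.04 to 1.18 times as high with glucose and 1.09 to 1.23 times as high without. TPM relates each gene to the whole library, and no TMM factor was applied to it. The same ratio of group means without glucose was 1.21 in TPM and 1.61 in TMM-scaled CPM.

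In cells kept in glucose, 3 of the 10 enzyme mRNAs were higher in KMT2D-KO than in KMT2D-WT cells and none was lower. These were PGK1, 1.72-fold higher, TPI1, 1.31-fold, and ENO1, 1.29-fold. Genes were called at an adjusted p under 0.05 in edgeR's quasi-likelihood test with experiment as covariate, and 13.0% of the 20423 genes tested were called higher and 11.7% lower, 24.7% in all. GAPDH missed the limit at 1.21-fold, and the other 6 differed by between 0.925-fold (ALDOA) and 1.14-fold (PFKM). The median log2 fold change of the members was 0.18 against 0.02 for all genes, and 7 of 10 were positive. At an unadjusted p under 0.05 and in DESeq2 with the same design, 4 members were higher and 0 lower. The shares of all genes at these settings are not given, so such counts, here and below, cannot be set against a background.

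Without glucose, 9 of the 10 were higher in KMT2D-KO cells and none was lower, and only PGAM1 was not called. PGK1 was 2.05-fold higher, ENO1 1.60-fold, GAPDH 1.59-fold, TPI1 1.57-fold and ALDOA 1.51-fold. PFKL was 1.38-fold higher, PFKM and PFKP 1.30-fold and PKM 1.29-fold. The background was also large, since 25.9% of the 16782 genes tested were called higher and 24.9% lower, 50.8% in all. The median over the members was 0.53 against 0.0029 for all genes. These estimates rest on TMM scaling, and in TPM the group means of PKM, PFKP, PFKM and PGAM1 were not higher in KMT2D-KO. With the nearly alike pairs summed, 3 members were called (PGK1, adjusted p = 0.022, ENO1, adjusted p = 0.034, and GAPDH, adjusted p = 0.039, in edgeR), beside 8.99% of all genes called higher, and the estimates of all 10 remained positive. The other called members lost their calls in that fit, and the values by gene below come from the unsummed pairs. In experiment 1 alone no gene was called, and without the covariate only PGK1 and ENO1 were among the members, beside 10.2% of all genes called higher. Counts at an unadjusted p under 0.05 and in DESeq2 with the same design were 9 higher and 0 lower.

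Libraries were also set against those of their own experiment. With glucose, 5 members (PFKL, TPI1, GAPDH, PGK1 and ENO1) had every KMT2D-KO library above every KMT2D-WT library of its experiment, beside 21.7% of all genes tested, and 0 had every one below, beside 21.3%. Without glucose 9 members did, PFKM being the exception, beside 31.6% of all genes, and 0 lay below, beside 32.3%.

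**Figure D2:**
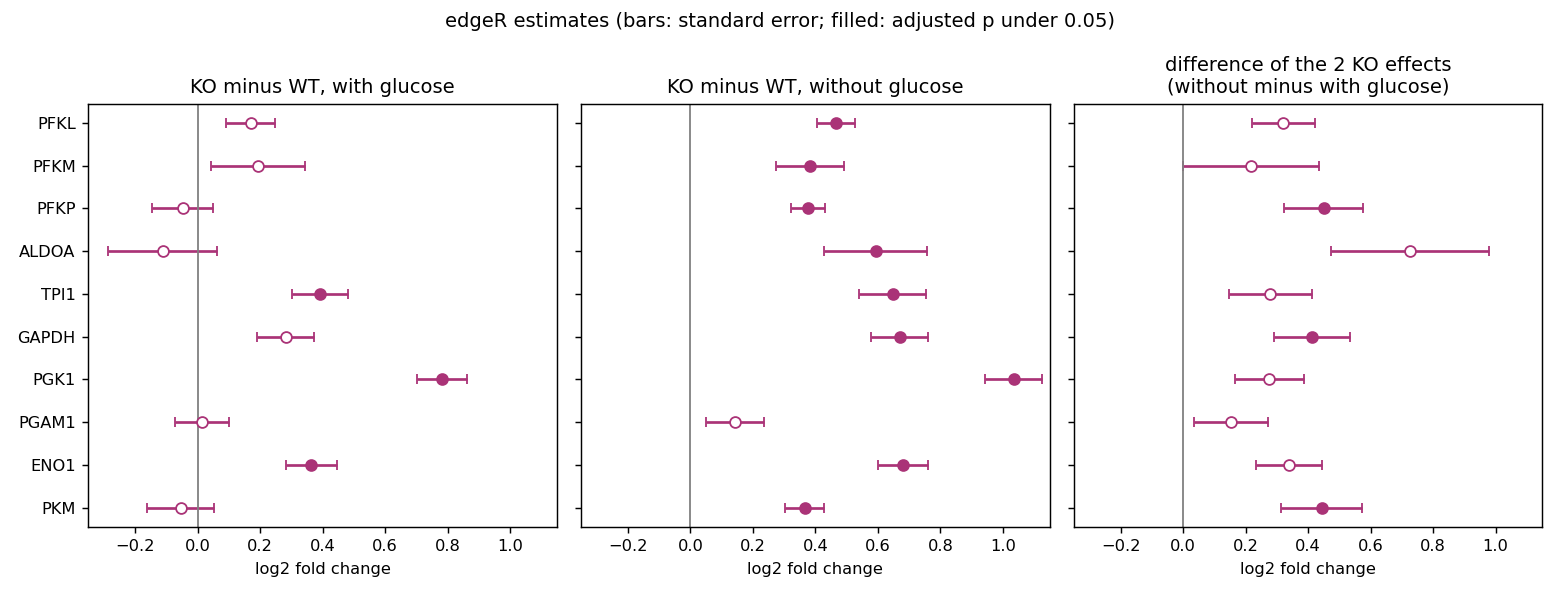
Points give the log2 fold change of each member from edgeR and bars its standard error, for KMT2D-KO against KMT2D-WT with glucose (left), without glucose (middle) and for the difference of both effects (right). Filled points passed an adjusted p of 0.05: 3 members at left, 9 in the middle and 3 at right.

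Phosphofructokinase is built from liver, muscle and platelet subunits, encoded by PFKL (chr21:44300051-44327376), PFKM (chr12:48105139-48146404) and PFKP (chr10:3066333-3137718). The platelet form led in every library, with 52.7% to 58.8% of the summed TPM of the 3 genes. PFKL took 20.9% to 26.2% and PFKM 18.5% to 24.6%. With glucose PFKP took 56.6% to 58.8% in KMT2D-WT and 52.7% to 54.2% in KMT2D-KO libraries, ranges that do not overlap, while without glucose 54.9% to 57.0% and 53.8% to 56.6% did.

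PFKP stood at 295, 217 and 224 CPM in KMT2D-WT and at 263, 300.4, 189 and 238 CPM in KMT2D-KO cells with glucose. Without glucose the values were 323, 225 and 224 CPM in KMT2D-WT and 386, 409, 309.7 and 308 CPM in KMT2D-KO. The groups overlapped with glucose, and without it the lowest KMT2D-KO library lay above the KMT2D-WT libraries of experiment 2 and below that of experiment 1. The log2 fold change was -0.05 (SE 0.10, edgeR adjusted p = 0.765) with glucose and 0.38 (SE 0.06, adjusted p = 0.00152) without. The difference between both was 0.45 (SE 0.12, adjusted p = 0.0381).

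PFKL ranged from 91.9 to 141 CPM in KMT2D-WT and 106 to 160.0 CPM in KMT2D-KO with glucose, and from 98.7 to 155 and 141 to 208 CPM without. Its log2 fold change was 0.17 with glucose (edgeR adjusted p = 0.152) and 0.47 without (adjusted p = 8.88e-04). PFKM differed between the lines with glucose: it stood at 98.0 and 64.7 CPM in KO1 and at 123 and 102 CPM in KO2, with 98.1, 72.7 and 72.5 CPM in KMT2D-WT. KO1 was at or below the KMT2D-WT library of its experiment and KO2 above it. The log2 difference of KO2 from KO1 was 0.51 (SE 0.09, edgeR adjusted p = 7.67e-04). Without glucose PFKM was called at 0.38 (SE 0.11, adjusted p = 0.0235), a call that held in 2 of the 7 fits that each left out 1 library, namely those without the KMT2D-WT or the KO1 library of experiment 1 (adjusted p of 0.0572 to 0.0979 in the other 5). PFKM shares 5.51% of its exonic bases with SENP1, and counting did not use strand.

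Aldolase A (ALDOA, chr16:30064164-30070457) splits fructose bisphosphate. It stood at 67.1, 17.9 and 29.2 CPM in KMT2D-WT and at 63.8, 69.0, 17.6 and 23.8 CPM in KMT2D-KO with glucose. Without glucose the values were 70.2, 27.8 and 21.0 CPM and 131, 96.0, 33.4 and 38.1 CPM. The experiments stood apart more than the genotypes, with 63.8 to 131 CPM in experiment 1 and 17.6 to 38.1 CPM in experiment 2. Other annotated genes cover 54.4% of its exonic bases, so how many of its reads were counted is uncertain. KMT2D-KO differed from KMT2D-WT by a log2 fold change of -0.11 (SE 0.17, edgeR adjusted p = 0.692) with glucose and 0.59 (SE 0.16, adjusted p = 0.0214) without, the latter called in 4 of 7 fits without 1 library. It was not called when the first experiment's KMT2D-WT library, the second KMT2D-WT or the KO2 library of experiment 2 was left out (adjusted p = 0.138, 0.0805 and 0.0715).

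Triose phosphate isomerase (TPI1, chr12:6867119-6870948) converts both products of aldolase into each other. With glucose it stood at 634, 596 and 588 CPM in KMT2D-WT and at 756, 816, 721 and 880.3 CPM in KMT2D-KO, so that the groups did not overlap. Without glucose the KMT2D-WT libraries held 642, 404 and 409 CPM and the KMT2D-KO libraries 1166, 919, 625 and 643 CPM. The KMT2D-KO libraries of experiment 2 were near the KMT2D-WT library of experiment 1, and all were above those of their own experiment. In the test with glucose the log2 fold change was 0.39 (SE 0.09, edgeR adjusted p = 0.0120), called in the 4 fits that left out a KMT2D-KO library and not in the 3 that left out a KMT2D-WT library (adjusted p = 0.0783, 0.0536 and 0.0511). It was 0.65 (SE 0.11, adjusted p = 0.00270) without glucose.

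GAPDH (chr12:6534512-6538374) oxidizes glyceraldehyde phosphate and yields NADH. It stood at 2800.4, 1962 and 1947 CPM in KMT2D-WT and at 3127, 3423, 2176 and 2663 CPM in KMT2D-KO with glucose. Without glucose it stood at 3036, 1775 and 1727 CPM and at 5358, 4435, 2804 and 2825 CPM. Within each experiment the genotypes did not overlap, and the KO1 library of experiment 1 without glucose was the highest of all. The log2 fold change was 0.28 (SE 0.09, edgeR adjusted p = 0.0513) with glucose, 0.67 (SE 0.09, adjusted p = 0.00111) without, and 0.41 (SE 0.12, adjusted p = 0.0476) for the difference. GAPDH is often used as a reference gene, and it spanned 0.98 on the log2 scale of TPM over the 14 libraries.

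Counts of GAPDH and TPI1 are shared with processed pseudogenes to a degree that followed the library set. Of 65 named GAPDH pseudogenes 46 had a count. They took 0.543% to 0.631% of the joint counts in the 4 libraries with both mates, 7.05% to 7.67% in experiment 1 and 19.8% to 20.2% in experiment 2 without glucose. For TPI1 the shares were 1.67% to 1.98%, 6.08% to 6.62% and 9.97% to 10.2%. Within each set KMT2D-WT and KMT2D-KO libraries had nearly the same share. With pseudogene counts added to their parent genes, the same 3 and 9 members were called in both genotype comparisons.

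**Figure D3:**
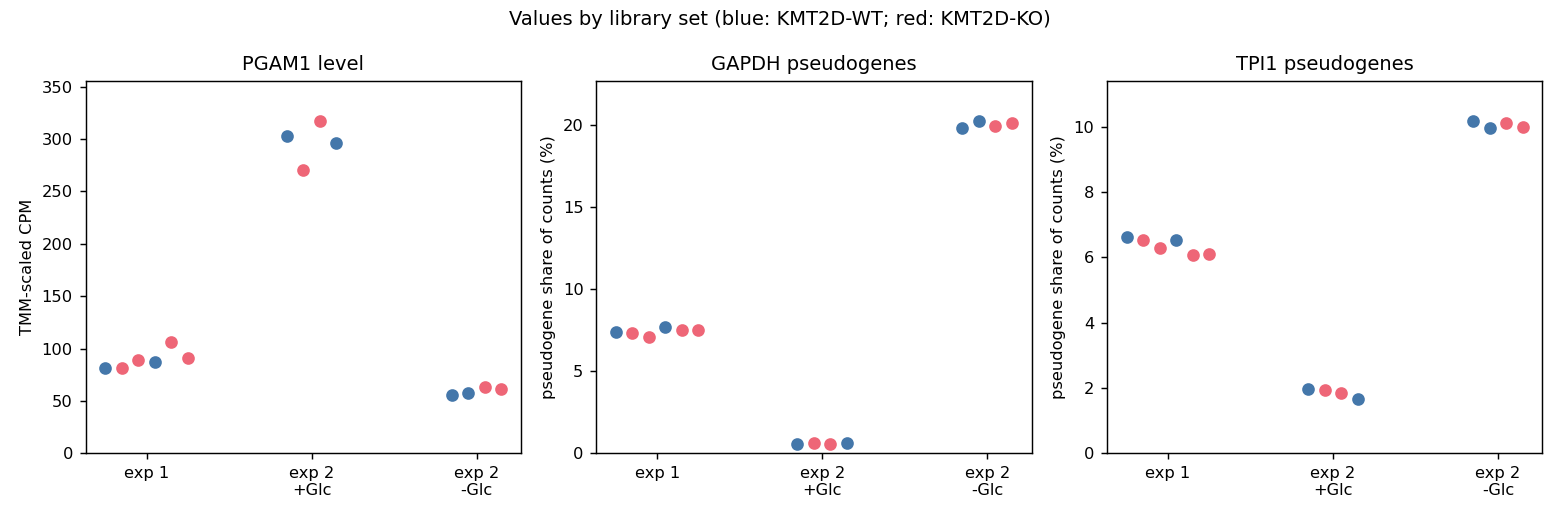
Each point is 1 library, by library set on the x axis: PGAM1 in TMM-scaled CPM (left) and the share of GAPDH (middle) and TPI1 (right) counts that fell on pseudogenes, in percent, all from 0. PGAM1 is at 270.3 to 317 CPM in the 4 libraries of experiment 2 with glucose, where both pseudogene shares are lowest.

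Phosphoglycerate kinase 1 (PGK1, chrX:77910739-78129295), which forms the first ATP of the lower pathway and whose promoter window is printed above, had the largest fold change of the members in both conditions. With glucose it stood at 339, 289 and 267 CPM in KMT2D-WT, and at 608, 606, 440.2 and 482 CPM in KMT2D-KO. Without glucose it stood at 362, 298 and 297 CPM and at 807, 676, 613 and 629 CPM. The lowest KMT2D-KO library was above the highest KMT2D-WT library in both conditions. Its log2 fold change was 0.78 (SE 0.08, edgeR adjusted p = 2.49e-04) with glucose and 1.03 (SE 0.09, adjusted p = 1.98e-04) without. Of the genes tested, 10.9% and 8.49% ranked at least as high. Both lines showed it with glucose, at 0.75 for KO1 and 0.82 for KO2 against KMT2D-WT. Within experiments it was 0.84 and 0.72 with glucose and 1.04 and 1.02 without, for experiments 1 and 2, of which experiment 1 alone did not pass the test (adjusted p = 0.070 and 0.29 in edgeR). Every fit that left out 1 library kept both calls.

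Phosphoglycerate mutase 1 (PGAM1, chr10:97426191-97433444) moves the phosphate group between carbons. It stood at 81.8, 303 and 296 CPM in KMT2D-WT and at 81.7, 89.1, 270.3 and 317 CPM in KMT2D-KO with glucose. Without glucose the values were 86.9, 55.4 and 57.4 CPM and 106, 91.0, 63.2 and 61.4 CPM. All 4 libraries with both mates counted lay above the other 10. It has 13 named pseudogenes, which took at most 3.21% of the joint counts. The log2 fold change was 0.01 (SE 0.09, edgeR adjusted p = 0.939) with glucose and 0.14 (SE 0.09, adjusted p = 0.239) without, and PGAM1 was the only member called in neither condition.

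Enolase 1 (ENO1, chr1:8861000-8879190, minus strand) makes phosphoenolpyruvate. With glucose it stood at 1888, 1469 and 1384 CPM in KMT2D-WT and at 2284, 2484, 1734 and 1957 CPM in KMT2D-KO. Without glucose it stood at 2002, 1720.5 and 1729 CPM and at 3438, 2939.6, 2829.9 and 2831 CPM. The groups overlapped with glucose only through the KO1 library of experiment 2, and were apart without. The log2 fold change was 0.36 (SE 0.08, edgeR adjusted p = 0.0118) with glucose, called in each fit without 1 library except that without the KMT2D-WT library of experiment 1 (adjusted p = 0.1001), and 0.68 (SE 0.08, adjusted p = 6.56e-04) without.

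The neuronal enolase ENO2 went the other way. It stood at 52.1, 43.1 and 44.4 CPM in KMT2D-WT and at 26.5, 23.0, 23.0 and 22 CPM in KMT2D-KO with glucose, and at 67.2, 45.6 and 44.2 CPM and 53.0, 28.0, 23.9 and 22.9 CPM without. Its log2 fold change was -0.999 (SE 0.09, edgeR adjusted p = 1.38e-04) with glucose and -0.87 (SE 0.22, adjusted p = 0.0156) without. The latter call was lost in 4 of the 7 fits without 1 library: without the KMT2D-WT library of experiment 1 (adjusted p = 0.0566), the first KMT2D-WT library of experiment 2 (0.0520) and either KMT2D-KO library of experiment 2 (0.0581 for KO1, 0.0653 for KO2). ENO1 remained the main enolase mRNA, since ENO2 took 3.24% to 3.74% of the summed enolase TPM in KMT2D-WT and 1.11% to 1.58% in KMT2D-KO libraries with glucose.

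Pyruvate kinase M (PKM, chr15:72199029-72231822, minus strand) makes pyruvate in the last step, and counts by gene do not separate its M1 and M2 forms. With glucose it stood at 2246, 1829.6 and 1842 CPM in KMT2D-WT and at 2026, 2356, 1509.7 and 1970.4 CPM in KMT2D-KO. Without glucose it stood at 2141, 1784 and 1795 CPM and at 2764, 2566, 2405 and 2409 CPM. In CPM the groups overlapped with glucose and were apart without it. In TPM without glucose the order was reversed, with 840 to 871 TPM in KMT2D-KO and 876 to 920 TPM in KMT2D-WT libraries. The log2 fold change was -0.05 (SE 0.11, edgeR adjusted p = 0.757), 0.37 (SE 0.06, adjusted p = 0.00285) and, for the difference, 0.44 (SE 0.13, adjusted p = 0.0445).

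**Figure D4:**
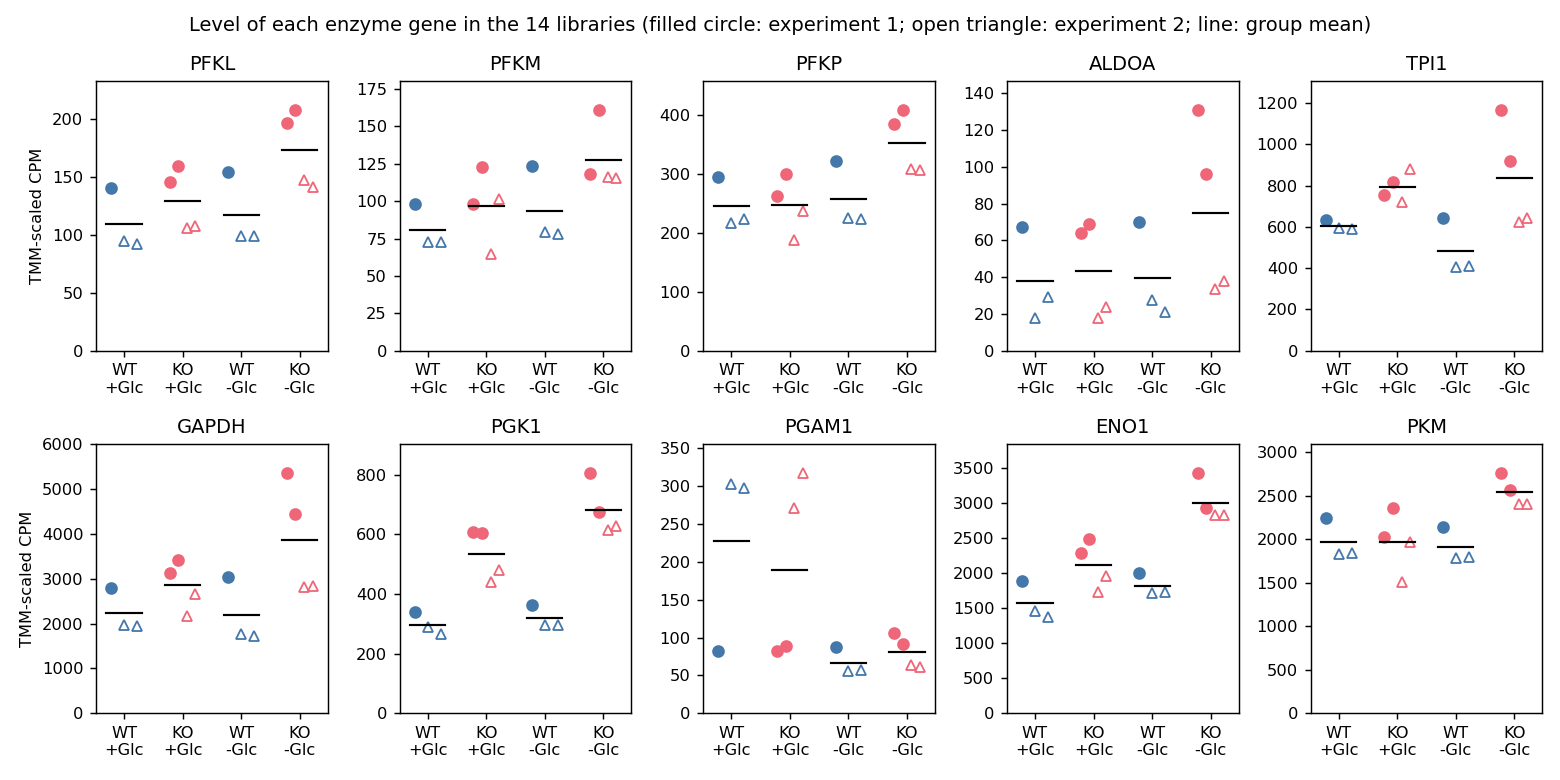
Each panel shows 1 member in TMM-scaled CPM from 0, by genotype and glucose condition, with filled circles for experiment 1, open triangles for experiment 2 and lines for group means. PGK1 and ENO1 are higher in KMT2D-KO libraries within both experiments and both conditions, and PGAM1 is high in the 4 libraries of experiment 2 with glucose.

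A fit over all 14 libraries tested whether the genotype effect depended on glucose. All 10 estimates were positive, from 0.15 (PGAM1) to 0.73 (ALDOA), with a median of 0.33 against -0.0021 for all genes. PFKP, PKM and GAPDH passed the test as a larger effect without glucose and none as a smaller one, beside 4.73% and 6.54% of the 18678 genes tested, 11.3% in all. At an unadjusted p under 0.05 and in DESeq2 with the same design 7 were higher and 0 lower, counts without a background share. The 3 calls were close to the limit, and the nearly alike pairs of experiment 2 without glucose were not summed for this test. With line and experiment as a replicate block, which relies on the doubtful line labels of experiment 2 without glucose, 1 member, PFKP, was called higher, beside 4.21% of all genes. Under library-size scaling none was, beside 1.41%, and in experiment 1 alone no gene was called. With glucose all libraries of experiment 2 had both mates counted and without it none had, so for this test the layout and the glucose condition cannot be told apart within experiment 2.

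The effect of glucose itself was read in experiment 1, where KMT2D-WT, KO1 and KO2 each had 1 library in both conditions, with line as a block. Deprivation was visible in a list of 6 known responders, of which 4 were called higher, 1 lower and 1 was not called. Among them TXNIP fell by 3.46 on the log2 scale and CHAC1 rose by 2.37 (edgeR adjusted p = 0.00185 and 9.90e-04). None of the 10 members was called, beside 1.10% of the 16066 genes tested (0.479% higher, 0.622% lower). Estimates were positive for all 10, from 0.14 (PGAM1) to 0.50 (ALDOA), with a median of 0.29 against -0.02 for all genes. At an unadjusted p under 0.05 there were 3 higher (ALDOA, GAPDH and PFKP) and 0 lower, and DESeq2 with the same design called 0 in either direction.

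Values by line are a description, since each line has a single pair of libraries here. In KMT2D-WT the members moved by between -0.07 (PKM) and 0.33 (PFKM) without against with glucose, with a median of 0.09. In KO1 the range was 0.27 to 1.04, with a median of 0.50, and in KO2 it was 0.03 to 0.48, with a median of 0.31. The genotype difference in this response is the contrast of the preceding test in experiment 1, in which no member and no other gene was called.

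**Figure D5:**
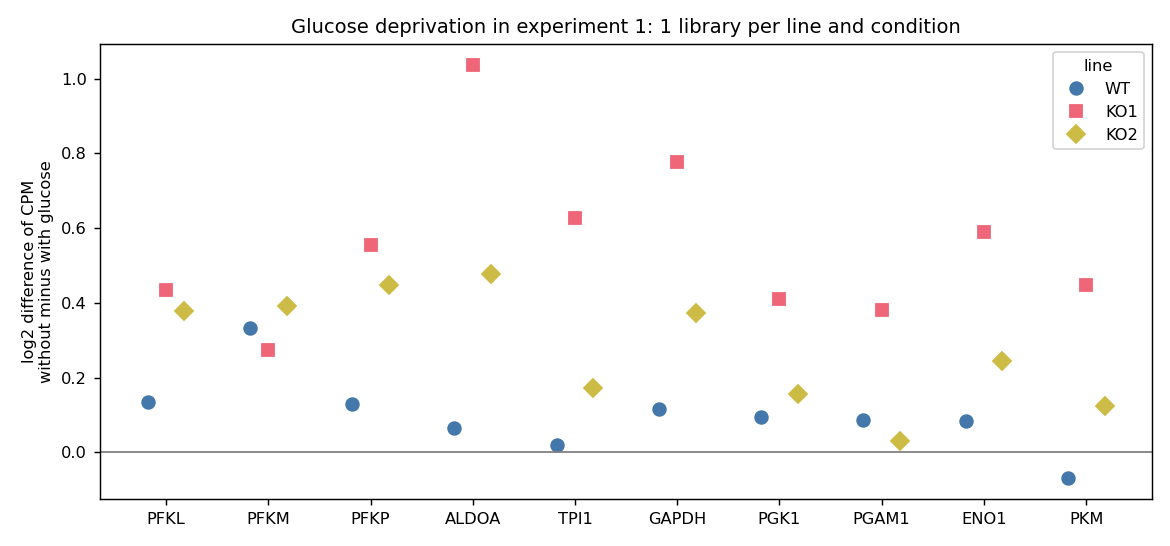
Points give, for each member, the log2 difference of CPM without minus with glucose in experiment 1, by line, with 1 library per line and condition. All KO1 and KO2 points are above 0, with ALDOA in KO1 highest at 1.04, and 9 of 10 KMT2D-WT points are above 0.

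Both KMT2D-KO lines were compared with glucose. The log2 estimates of KO2 against KO1 were positive for all 10 members, from 0.08 (PGK1, adjusted p = 0.632 in edgeR) to 0.51 (PFKM), with a median of 0.22 against 0.02 for all genes. PFKM, PKM (0.31, edgeR adjusted p = 0.00718), PFKP (0.28, adjusted p = 0.0214) and GAPDH (0.22, adjusted p = 0.0494) passed the test and none was lower, beside 7.40% of the 21850 genes tested called higher and 7.32% lower, 14.7% in all. An unadjusted p under 0.05 gave 7 higher and 0 lower, and DESeq2 5 and 0. KMT2D itself was higher in KO2 by 0.94 (SE 0.08, adjusted p = 7.87e-07). Against KMT2D-WT, KO1 alone gave 3 members called higher (TPI1, PGK1 and ENO1), beside 15.3% of all genes tested, and KO2 alone 5 (PFKM, TPI1, GAPDH, PGK1 and ENO1), beside 18.0%. For KO2 against KO1 without the experiment covariate no member passed, beside 0.0137% of all genes called higher.

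Other genes of the pathway were read from lists. Of 10 further glycolysis genes (glucose and lactate transporters, hexokinases, GPI and lactate dehydrogenases) 9 were tested. With glucose 4 were called higher and 1 lower, and without it 6 higher and 1 lower, with medians of 0.25 and 0.49. The 4 called higher with glucose were HK2, HKDC1, LDHB and SLC16A1. All are among the genes that the study picked from these libraries, so these counts are not independent evidence. Of all genes tested, 13.0% were called higher and 11.7% lower with glucose, and 25.9% and 24.9% without. The same shares apply to the lists that follow. GPI, the isomerase just above phosphofructokinase, stood at 0.22 (edgeR adjusted p = 0.0963) with glucose and 0.57 (adjusted p = 7.56e-04) without. LDHB, which makes and uses lactate, was higher by 1.41 and 1.28, and the lactate exporter SLC16A3 fell by 1.25 and 1.11, all called in both conditions.

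Of 9 other isozymes of the members, 5 were tested with glucose and 4 without. None was called higher, and ENO2 with glucose and ENO2 and ENO3 without were called lower. Of 11 regulators and gluconeogenic genes, 8 and 7 were tested, with 1 higher and 1 lower with glucose and 1 higher and 2 lower without. Of all genes, 24.7% and 50.8% were called in either direction, so these counts lie near or below the background. PFKFB4, 1 of the enzymes that set a sugar phosphate signal to phosphofructokinase, fell by 0.60 and 1.22, at only 2.28 to 8.98 CPM. PFKFB2 and PFKFB3 had higher medians over the libraries, 57.9 and 72.4 CPM. With glucose they stood at 0.23 and -0.02 and were not called. The signal itself was not measured. PCK2, the mitochondrial carboxykinase, rose by 0.63 and 0.67.

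Of 7 transcription factors known to act on these genes, 2 were called higher and 1 lower in either condition. Beside them, 24.7% of all genes with glucose and 50.8% without were called in either direction. MYC stood at 113, 66.0 and 67.0 CPM in KMT2D-WT and at 199, 191, 122 and 113 CPM in KMT2D-KO with glucose, and at 181, 127 and 126 CPM and 707, 839, 581 and 563 CPM without. Its log2 fold change was 0.82 (edgeR adjusted p = 1.55e-04) with glucose, 2.12 (adjusted p = 2.76e-05) without and 1.34 for the difference (adjusted p = 4.49e-05). EPAS1, a hypoxia-inducible factor, fell by 0.85 and 0.37, HIF1A stood at -0.16 and -0.03 and was not called, and MLXIPL was called higher at 0.181 to 3.13 CPM.

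The genes whose profile over the 14 libraries was most like the mean profile of the members were found among 6030 genes with a mean of at least 5 on the log2 CPM scale. These were PSMD4, a proteasome subunit (root mean square difference of 0.07 on the log2 scale), PGAP2 (0.10), NONO (0.10), GSDMD (0.11) and ASPSCR1 (0.11). The mean profile itself varied by 0.34 on this scale. Of the members GAPDH was nearest to it (0.14) and PGAM1 farthest (1.02).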

How the data were processed

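The authors aligned reads with HISAT2 and counted primary alignments on genes of GRCh38 (Ensembl 102) with featureCounts 2.0.3, by gene name and without strand, per the file headers. Reads in 4 libraries were counted with both mates. The deposited values are raw counts per gene and library, and all 14 libraries were used. Counts were analysed with edgeR 4.0.16 (filterByExpr with a minimum count of 10, TMM, quasi-likelihood test) in R 4.3.3, with Benjamini-Hochberg adjustment over all genes tested. Genotypes were compared in each glucose condition with experiment as covariate, the difference of both effects in all libraries with experiment within condition, deprivation in experiment 1 with line as block, and KO2 against KO1 with glucose. The paper's methods name DESeq2 and give no design for it. DESeq2 1.42.0 with and without covariate, other scalings, filters, single lines or experiments, a length offset and each library left out were alternatives. Libraries of 1 line deviated together across glucose conditions in experiment 1 (correlation over genes 0.697, 0.477 and 0.528 for KMT2D-WT, KO1 and KO2). A line or genotype effect present in both conditions also gives such a correlation, so it does not show that cultures were paired. The pairing comes from the line labels. CPM were scaled with TMM over all libraries, and TPM used the length column. Tests were tried on simulated counts with 200 changed genes, of which those changed 1.5-fold were found in 44% of cases with glucose, 36% without and 10% for the difference. Simulated libraries were drawn independently of each other, unlike the nearly alike pairs without glucose. The rates without glucose and for the difference may therefore not hold for these data. The members and lists were chosen with earlier results of these data known. All members were named in every comparison, and of the lists any gene could be named. The 5 nearest genes were those with the smallest root mean square difference among genes of at least 5 on the log2 CPM scale. Promoter sequences are from RefSeq (GRCh38.p14), with all 10 members matched.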

Additional observations from a re-analysis of the deposited data

Results flagged for a closer look

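PFKM in the KO2 library of experiment 1 without glucose was the only value among the 20 groups of 4 libraries (10 members in 2 KMT2D-KO groups) that lay far from the others of its group, at 161 CPM against 116 to 118 CPM in the other 3, and chance flags about 1 group in 20. 3 members had KMT2D-KO effects that differed between glucose conditions in the edgeR test of the difference itself, on the log2 scale without minus with glucose: PFKP by 0.45, PKM by 0.44 and GAPDH by 0.41. Their adjusted p values in this edgeR test were 0.0381, 0.0445 and 0.0476, and none of the 3 was called with library size as the only scaling.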

How the results depend on the processing

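Without glucose, PGK1 was called in each fit except those of experiment 1 alone. The direction of 9 members was positive under every alternative fit, PGAM1 being the exception at -0.11 with library size as the only scaling. In TPM, to which no TMM factor was applied, it was not. Group means without glucose in KMT2D-WT and KMT2D-KO were 892 and 857 TPM for PKM, 132.8 and 132.0 for PFKP, 51.4 and 51.1 for PFKM, and 104 and 90.8 for PGAM1. The other members were higher in KMT2D-KO in TPM too. Counts of members called higher moved with the settings (3 with glucose, 9 without, 3 for the difference of both effects, 4 for KO2 against KO1 as reported). Shares of all genes called are given above for some of these settings only, so the other counts in this section cannot be set against a background. With library size as the only scaling they were 5 without glucose, 0 for the difference and 2 for KO2 against KO1, and the median of all genes moved to -0.25, -0.23 and -0.05. With a call that needs 1.5-fold they were 1 and 5 with and without glucose, 0 for the difference and 0 for KO2 against KO1. Without covariate they were 1 and 2 in both conditions and 0 for KO2 against KO1, and 4 without glucose in DESeq2 without covariate. Experiment 1 alone gave 0 with glucose, 0 without and 0 for the difference, and experiment 2 alone 1 with glucose. KO2 alone gave 5 with glucose, and summing the close pairs 3 without. For the difference, DESeq2 gave 7, RLE scaling 5, a gene length offset 5 and experiment as an additive term 1. Line numbers pair libraries across glucose conditions, and with this pairing as a replicate block the difference gave 1 call, while without the block the deprivation test in experiment 1 gave 0, as with it. Leaving out 1 library at a time gave 1 to 4 calls with glucose (1 without the KMT2D-WT library of experiment 1), 7 to 9 without, 0 to 5 for the difference, 0 to 0 for deprivation and 0 to 6 for KO2 against KO1 (0 without either KMT2D-KO library of experiment 2, 2 and 1 without KO1 or KO2 of experiment 1). For the difference the count was 0 without any 1 of the 6 KMT2D-WT libraries, without the KO1 library of experiment 2 with glucose and without either KMT2D-KO library of experiment 2 deprived of it, 1 without KO1 of experiment 1 with glucose, and 5 without KO1 or KO2 of experiment 1 deprived of it. Members that were not called changed sign with glucose. PGAM1 was at -0.042 with library size only, -0.0064 with no filter on low counts, -0.26 without covariate (-0.25 in DESeq2), -0.041 in experiment 2 and -0.084 in KO1. Without covariate PFKP was at 0.020, ALDOA at 0.21 and PKM at 0.0010 (0.037, 0.23 and 0.018 in DESeq2), and in KO2 alone they were at 0.085, 0.038 and 0.098, while PFKM was at -0.092 in KO1. KMT2D was at 0.072 with the length offset, 0.041 in experiment 2 and 0.37 in KO2. With 1 library left out the ranges were -0.042 to 0.083 for PGAM1 (-0.042, -0.035 and -0.028 where negative), -0.14 to 0.033 for PFKP, -0.25 to 0.10 for ALDOA (0.10 and 0.013 where positive), -0.15 to 0.044 for PKM and -0.33 to 0.18 for KMT2D (0.18, 0.11 and 0.037 where positive) with glucose, and -0.033 to 0.28 for ENO2 in the difference. The difference of PFKM was -0.0028 with library size only and -0.022 in experiment 1, that of PGAM1 -0.071 and that of ENO2 -0.076 with library size only. The deprivation fits that follow include experiment 2, in which glucose and read layout cannot be told apart. Deprivation read in all 14 libraries called 6 members higher and 1 lower, with TPI1 at -0.14 and PGAM1 at -1.29. Experiment 2 alone gave 3 higher and 2 lower, with TPI1 at -0.44 and PGAM1 at -2.32. In the KMT2D-WT libraries of both experiments TPI1 was at -0.35, GAPDH at -0.058, PGAM1 at -1.62 and PKM at -0.039, and the KMT2D-KO libraries of both gave 7 higher with PGAM1 at -1.04. In CPM in place of TPM the ratio of summed levels was 1.21 with and 1.61 without glucose, and shares of counts not divided by length were 26.0% for PFKL and 19.7% for PFKM. The causes of these changes were not tested, beyond the fewer libraries of some fits. Each member had at least 597 counts in every library. In simulated counts, with libraries drawn independently, 1.5-fold changes were found in 10% of cases for the difference and 28% for deprivation.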
